A study of Mus musculus with 20 samples.

Results

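The kinases that phosphorylate SR proteins and the Tra2 splicing activators were followed through mouse bone marrow that expressed wild-type or mutant U2AF1 with or without sudemycin D6. The 8 genes were listed by name and not by a threshold on measured values, with earlier results of these data known: Clk1, Clk2, Clk3 and Clk4 (the CDC-like kinases), Srpk1 and Srpk2 (the SR protein kinases) and Tra2a and Tra2b (the transformer-2 homologues). All 8 of the names matched a gene among the 37620 in the count table, and 371 splice junctions with reads lay in them.

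SR proteins bind exonic enhancers through RNA recognition motifs and act through a tail rich in arginine and serine that must be phosphorylated. SRPK kinases work largely in the cytoplasm and send SR proteins to the nucleus, where CLK kinases phosphorylate them further and release them from nuclear speckles. Tra2 proteins resemble SR proteins, favour GAA-rich enhancers and limit their own level by including a poison exon, an exon that brings an early stop codon, and CLK transcripts without exon 4 likewise carry an early stop codon in place of the kinase domain.

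RNA of bulk bone marrow was sequenced from 20 recipient mice in 4 groups of 5. Donor marrow carried a doxycycline-inducible, rtTA-dependent transgene for U2AF1(WT) or U2AF1(S34F), which differ at serine 34 of the U2AF1 protein that contacts the 3′ splice site. All groups received doxycycline chow (625 ppm) for 7 days after more than 6 weeks of engraftment, and by the study's methods the marrow came from several pooled CD45.2 donors aged 8 to 12 weeks and went into irradiated, sex-matched (C57BL/6 × 129S4Sv/Jae)F1 recipients aged 6 to 12 weeks. On the last 5 of those days mice were infused with vehicle or with sudemycin D6 (50 mg per kg per day), a small molecule that binds the SF3B1 component of the U2 snRNP, and RNA was taken 18 h after the last infusion. The groups are called WT vehicle (mice 1, 2, 3, 4 and 5), WT sudemycin (mice 6, 8, 9, 10 and 12), S34F vehicle (mice 1, 3, 5, 7 and 11) and S34F sudemycin (mice 2, 6, 9, 10 and 12), and values are listed in that order of mice. Because donors were pooled, the error measures the spread between recipients.

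The exons at which the splicing results turn are shown by their 3′ splice site, the site that U2AF1 contacts. Each line gives the last 20 bases of the intron and the first 3 bases of the exon, 5′ to 3′ on the gene's strand (NCBI build 37, mm9), with the base at intron position −3 in capitals.
Clk1 exon 4, 91 bp, chr1:58476965-58477055, minus strand: cgcccacttgacgtgtcCagaag
Clk2 exon 4, 88 bp, chr3:88973537-88973624, plus strand: ccccccccaccccccgaCagcag
Clk3 exon 4, 97 bp, chr9:57606434-57606530, minus strand: tcggggggcggtgcatgCagaga
Clk4 exon 4, 91 bp, chr11:51086580-51086670, plus strand: ctgcccacttgccgttcCagaag
Clk4 67-bp exon, chr11:51081667-51081733, plus strand: ttttctccttgtttgtaCagatg
Clk4 78-bp exon, chr11:51082271-51082348, plus strand: tatttctgtctgttcctAagggg
Clk4 59-bp exon, chr11:51084039-51084097, plus strand: gtgtcccctctctccccCagtgc
Tra2b poison exon, 276 bp, chr16:22259059-22259334, minus strand: cctgttctttttctattAaggtt
Tra2a poison exon, 312 bp, chr6:49202796-49203107, minus strand: aatgttctttttccattAaggtt
Clk1 167-bp exon, chr1:58473857-58474023, minus strand: tttttttaacgtgtttaTagccg
Srpk2 93-bp exon, chr5:23019770-23019862, minus strand: cttttgctctctcctcaTagacc
All 4 of the Clk exon 4 sites have C at −3, both poison exons have A, and the exons of Clk1 and Srpk2 at the end of the list have T.

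Exon 4 of Clk1 and of Clk4 have equal length and identical bases at 85 of 91 positions (93.4%), and both are shown because reads across near-identical copies can be placed wrongly. Capitals mark the positions that differ.
Clk1 exon 4: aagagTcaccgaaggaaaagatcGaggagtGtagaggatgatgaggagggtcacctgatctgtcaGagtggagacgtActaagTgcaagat
Clk4 exon 4: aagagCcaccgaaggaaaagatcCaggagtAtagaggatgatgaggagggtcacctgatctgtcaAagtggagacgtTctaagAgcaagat
The Tra2b poison exon is shown from its first base to the in-frame stop codon it brings (81 bases, chr16:22259254-22259334, minus strand), with the stop codon in capitals.
Tra2b poison exon, first base to stop: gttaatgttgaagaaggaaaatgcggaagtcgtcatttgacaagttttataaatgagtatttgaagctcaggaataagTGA
The hexamer GAAGAA, a Tra2-type enhancer, was counted on the transcribed strand with overlaps allowed. It occurred 3 times in the whole Tra2b poison exon and 4 times in the 312-bp Tra2a form, and 21.2% of the 2017 tested cassette exons of 200 to 350 bp held it at least once.

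Gene counts summed to 41145892 to 62138138 per mouse and junction reads to 34384214 to 64813149. All WT mice had Xist counts of 39145 to 78640 and at most 4 counts of any of 4 Y-linked genes, while all S34F mice had Xist counts of 1 to 8 and Y-linked counts of 1327 to 6120. Genotype and sex therefore cannot be told apart in any comparison of S34F with WT below. Counts of U2af1 were 34.8 to 38.4 CPM (counts scaled to 1000000 per library) in WT vehicle, 38.5 to 48.3 in WT sudemycin, 46.4 to 54.3 in S34F vehicle and 51.4 to 58.03 in S34F sudemycin, and whether transgene reads were counted there is not given in the sources used here. Summed neutrophil markers lay at 62383 to 70967, 58153 to 101219, 84893 to 138184 and 72738 to 119767 CPM in the same order of groups, and no marker of a listed marrow cell type was at 0 in every mouse of a group. The log2 ratio of reads across a gene's last intron to its first, a median over 4254 genes, was 0.282 to 0.402 in WT mice and 0.377 to 0.465 in S34F mice. In bulk marrow, fewer cells of a type and less RNA per cell cannot be told apart.

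All 8 members were well expressed, with 2199 to 26705 counts in any mouse. Per kilobase of exon, the mean level in WT vehicle mice was 56.7 ± 6.66 CPM per kb for Clk1 (SD, n = 5), 28.1 ± 2.25 for Srpk2, 27.7 ± 1.48 for Tra2a, 24.8 ± 2.34 for Clk3, 22.8 ± 1.34 for Tra2b, 17.2 ± 1.80 for Clk4, 11.98 ± 0.311 for Srpk1 and 9.93 ± 0.653 for Clk2. Clk1 stood clear of the rest, whereas the neighbours Srpk2 and Tra2a, and Clk3 and Tra2b, differed by less than their SD. Over all 20 mice the means per kb placed Clk1 at percentile 91.7 of the genes tested and Clk2, the lowest member, at percentile 66.5.

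**Figure D1:**
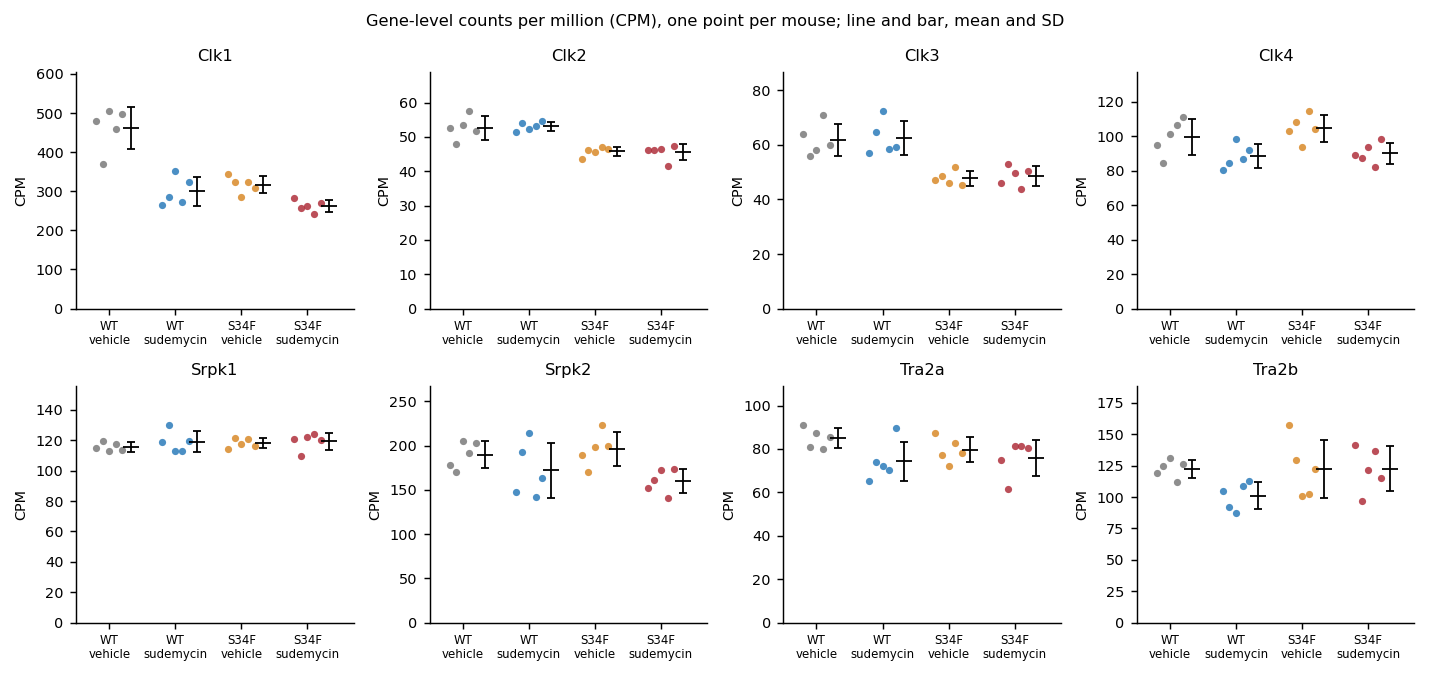
Gene-level counts in CPM (y axis from 0) of the 8 members in the 4 groups of 5 mice; each point is a mouse, and the line and bar are the group mean and SD. Clk1 was highest in WT vehicle mice (370 to 504 CPM), and Clk2 and Clk3 were lower in both S34F groups than in both WT groups.

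Clk1, a nuclear dual-specificity kinase of SR proteins, fell in gene-level count with sudemycin D6 in both genotypes. In WT mice it was 479, 370, 504, 458 and 497 CPM under vehicle and 264, 286, 353, 272 and 324 CPM under sudemycin D6. All WT sudemycin mice were below all WT vehicle mice. In edgeR's quasi-likelihood test over all genes, with Benjamini-Hochberg FDR below 10% as the call, Clk1 fell by 0.64 ± 0.11 on the log2 scale (SE, n = 5 and 5; FDR 0.0117), and it was the only member called in that comparison, where 3.07% of all genes tested were called.

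In S34F mice Clk1 was 344, 323, 285, 323 and 308 CPM under vehicle and 283, 258, 261, 242 and 269 CPM under sudemycin D6. The groups again did not overlap, and Clk1 fell by 0.27 ± 0.07 (FDR 0.0318). Under vehicle, S34F mice were also all below WT mice, by a log2 difference of −0.56 ± 0.09 (FDR 0.000998). The drug effects in the 2 genotypes differed by 0.35 ± 0.13 on the log2 scale without passing the test across all genes (interaction FDR 0.504), so a difference between genotypes in the drug's effect on Clk1 was not shown. None of the 8 genes had an interaction call in edgeR or in DESeq2, against 0.013% of all genes, and Clk1 alone had an unadjusted p below 0.05 in edgeR (0.0133).

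The lower Clk1 level in S34F mice depended on what was counted. Junction reads of Clk1, scaled to 1000000 spliced reads per library (spliced CPM), were 252.1, 238, 298, 272 and 332 in WT vehicle mice, and 294, 314, 264, 326 and 305 in S34F vehicle mice. These ranges overlapped, and the log2 difference was 0.10 ± 0.10 (FDR 0.464), the opposite sign to that of the gene counts. Under sudemycin D6 they were 195, 204, 262, 204 and 232 in WT mice and 227, 238, 239, 212 and 249 in S34F mice. With spliced reads Clk1 fell by 0.37 ± 0.07 with the drug in S34F mice (FDR 0.0125, no overlap) and had a log2 change of −0.35 ± 0.11 in WT mice that was not called (FDR 0.229). The level in spliced CPM, taken as a percentage of the level in CPM, averaged 60.4% ± 5.44 in WT vehicle, 73.3% ± 1.61 in WT sudemycin, 95.0% ± 6.21 in S34F vehicle and 88.9% ± 5.27 in S34F sudemycin (SD, n = 5). No WT vehicle mouse (at most 66.8%) reached the lowest S34F vehicle mouse (85.3%). None of the other 7 members had a WT vehicle mean so far from its S34F vehicle mean in this percentage.

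Immediate-early genes moved with the gene counts of Clk1 in some comparisons and not in others. The 9 listed (Fos, Fosb, Jun, Junb, Egr1, Egr2, Ier2, Dusp1 and Atf3, which respond within minutes to stress and growth signals) summed to 2050 to 4411 CPM in WT vehicle, 1704 to 2092 in WT sudemycin, 652 to 1225 in S34F vehicle and 626 to 827 in S34F sudemycin. All 9 were called lower in S34F than in WT under either treatment (39.5% of all genes were called under vehicle and 36.8% under sudemycin D6), 7 were lower with sudemycin D6 in WT (3.07% of all genes) and 4 in S34F (10.8%), and none was at 0 in every mouse of a group. Clk1 itself was not called between genotypes under sudemycin D6 (log2 −0.19, FDR 0.127). By spliced reads under vehicle, 5 of 6 tested immediate-early genes were lower in S34F (33.0% of all genes called), while Clk1 was not (log2 0.10, FDR 0.464). Atf3 was 1 of the 2 genes called in the interaction (log2 2.38, FDR 0.000994). Their part in the Clk1 result was not tested.

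Clk2 and Clk3, kinases of the same family, were lower in S34F mice under both treatments. Clk2 was 52.6, 47.8, 53.5, 57.5 and 51.6 CPM in WT vehicle mice and 43.5, 46.1, 45.6, 47.2 and 46.4 CPM in S34F vehicle mice. The groups did not overlap, although the highest S34F mouse was within 1 CPM of the lowest WT mouse, and the log2 difference was −0.21 ± 0.07 (FDR 0.029). Under sudemycin D6, Clk2 was 51.4, 53.9, 52.4, 53.3 and 54.5 CPM in WT and 46.3, 46.2, 46.3, 41.4 and 47.4 CPM in S34F, again without overlap (−0.22 ± 0.06, FDR 0.0135).

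Clk3 was 64.0, 56.1, 58.3, 70.9 and 60.1 CPM in WT vehicle mice and 47.1, 48.5, 46.1, 52.0 and 45.1 CPM in S34F vehicle mice. Every S34F mouse was below every WT mouse, with a log2 difference of −0.39 ± 0.08 (FDR 0.00278). Under sudemycin D6 the values were 57.0, 64.9, 72.3, 58.7 and 59.2 CPM in WT and 46.0, 52.9, 49.8, 43.7 and 50.6 CPM in S34F, with no overlap (−0.36 ± 0.08, FDR 0.00622). Both genes were also called lower from spliced reads (Clk2 −0.25 under either treatment, FDR 0.0397 and 0.0208, and Clk3 −0.28 and −0.29, FDR 0.0193 and 0.0185). Clk3 shares 1789 bases with Edc3 on the opposite strand, and the part of reads from there was not tested. Neither gene was called with the drug in either genotype by gene counts.

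With vehicle, 3 of the 8 members were called between the genotypes by gene counts, all of them Clk kinases and all lower, in a comparison in which 39.5% of all genes were called. With sudemycin D6, 3 of 8 were called, Clk2 and Clk3 lower and Tra2b higher, against 36.8% of all genes. These shares of members are close to those of all genes. By spliced reads 3 of 8 were called with vehicle (Clk2 and Clk3 lower, Tra2b higher) and the same 3 with sudemycin D6, against 33.0% and 31.6% of all genes.

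Clk4, the paralogue of Clk1, was not called between genotypes in gene counts under either treatment (FDR 0.637 and 0.827). In S34F mice it was 103, 108, 93.4, 114 and 104 CPM under vehicle and 89.0, 87.5, 93.5, 82.1 and 98.2 CPM under sudemycin D6. The ranges overlapped at their edges, and Clk4 fell by 0.22 ± 0.07 on the log2 scale (FDR 0.0726), a call that was lost in 8 of the 10 fits that left out 1 mouse (FDR up to 0.148). In WT mice, where the values were 94.8, 84.4, 101, 106 and 111 CPM under vehicle and 80.0, 84.4, 98.3, 86.9 and 92.0 CPM under the drug, the log2 change was −0.19 ± 0.09 and was not called (FDR 0.377). By spliced reads the change in S34F mice was −0.27 ± 0.07 (FDR 0.046, no overlap) and that in WT mice −0.30 ± 0.10 (FDR 0.249).

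Of the cytoplasmic kinases, Srpk2 fell with sudemycin D6 in S34F mice. It was 189, 169.9, 198, 223 and 199.5 CPM under vehicle and 152, 161, 172, 141 and 174 CPM under the drug, so that only the highest drug-treated mice reached the lowest vehicle mouse. The decrease was 0.29 ± 0.08 on the log2 scale (FDR 0.0565), and without S34F vehicle mouse 11, S34F sudemycin mouse 2 or S34F sudemycin mouse 10 it was no longer called (FDR up to 0.125). In WT mice Srpk2 was 179, 170.0, 205, 192 and 203 CPM under vehicle and 148, 192, 214, 142 and 164 CPM under the drug, the widest spread of its 4 groups, and was not called (−0.16 ± 0.11, FDR 0.594). Srpk1 lay between 109.7 and 129.8 CPM in all 20 mice, and none of its 5 log2 differences by gene counts exceeded 0.05. By spliced reads its log2 differences reached 0.12 (S34F against WT under sudemycin D6, FDR 0.254), and none was called.

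Thus 3 of 8 members, Clk1, Clk4 and Srpk2, were called lower with sudemycin D6 in S34F mice by gene counts, where 10.8% of all genes were called, and the same 3 by spliced reads, against 7.18% of all genes. In a single fit over all 20 mice none of the 3 was called (Clk1 FDR 0.129, Clk4 0.164, Srpk2 0.144). In WT mice no member was called by spliced reads in edgeR, against 1.15% of all genes (unadjusted p below 0.05 for 2 of the 8, Clk1 and Clk4).

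Markers of other cell types moved in the same comparisons, and 10.8% of all genes were called with the drug in S34F mice. With sudemycin D6 in S34F mice, 2 of 6 megakaryocyte markers were called lower (summed level 40.1 to 61.2 CPM under vehicle and 22.9 to 45.7 under the drug), as were 3 of 6 T and NK cell markers (24.6 to 48.8 and 17.9 to 25.01 CPM) and 2 of 9 erythroid markers (279 to 1004 and 361 to 705 CPM), while none of 8 monocyte and macrophage markers was called (763 to 1142 and 1076 to 1464 CPM). Between genotypes under vehicle, where 39.5% of all genes were called, 5 of 10 neutrophil markers were higher in S34F. Of 8 monocyte and macrophage markers 1 was higher and 4 lower. Under sudemycin D6 (36.8% of all genes), 4 of 6 T and NK cell markers, 4 of 7 B cell markers and 3 of 9 erythroid markers were lower. There 3 of the monocyte and macrophage markers were higher and 1 lower. The summed B cell level under sudemycin D6 was 25.0 to 172 CPM in WT and 34.3 to 51.9 CPM in S34F. All 7 B cell markers were lower for mutation and drug together, where 50.2% of all genes were called. Their part in the member results was not tested.

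Tra2b was higher in S34F than in WT mice under sudemycin D6. It was 105, 92.1, 87.4, 109 and 112 CPM in WT and 141, 96.7, 122, 137 and 115 CPM in S34F, with S34F mouse 6 inside the WT range and the other S34F mice above it. Tra2b rose by 0.27 ± 0.11 on the log2 scale (FDR 0.0872), and the call was lost in 5 of the 10 fits that left out 1 mouse, with S34F mouse 2 left out giving 0.22 (FDR 0.197). By spliced reads, 125, 101, 96.3, 128 and 113 spliced CPM in WT against 146, 128, 142, 159 and 158 spliced CPM in S34F, the rise was 0.38 ± 0.10 (FDR 0.0136), and the ranges met at S34F mouse 6.

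Under vehicle, Tra2b gene counts were 119, 124, 131, 112 and 126 CPM in WT and 157, 129, 101, 102 and 122 CPM in S34F, a log2 difference of −0.02 ± 0.11 (FDR 0.924). Its spliced reads were 124, 143, 127, 114 and 125 spliced CPM in WT and 160.2, 149.6, 134, 139 and 149 in S34F, and were called higher by 0.20 ± 0.08 (FDR 0.080). In S34F vehicle mice gene counts ranged from 101 to 157 CPM, a wider range than that of spliced reads. Tra2a had 61.6 to 90.9 CPM over all mice and was called in no comparison, and its log2 differences by gene counts ran from −0.21 to 0.03.

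Mutation and drug together, compared with WT vehicle, gave calls for 4 of 8 members by gene counts, all lower, against 50.2% of all genes. Clk1 fell by 0.81 ± 0.09 (FDR 2.14e-05), Clk2 by 0.21 ± 0.07 (FDR 0.0247), Clk3 by 0.35 ± 0.08 (FDR 0.00363) and Srpk2 by 0.24 ± 0.08 (FDR 0.0242). The groups did not overlap for Clk1, Clk2 and Clk3, and the share of all genes without overlap is not given here. By spliced reads 6 of 8 were called, against 43.6% of all genes, with Clk4 lower (−0.25, FDR 0.0362) and Tra2b higher (0.22, FDR 0.0519) in addition. The fall of Clk1 was smaller there, at −0.25 ± 0.09 (FDR 0.0431). This comparison shares its WT vehicle mice with the comparison of genotypes under vehicle and with that of the drug in WT mice.

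**Figure D2:**
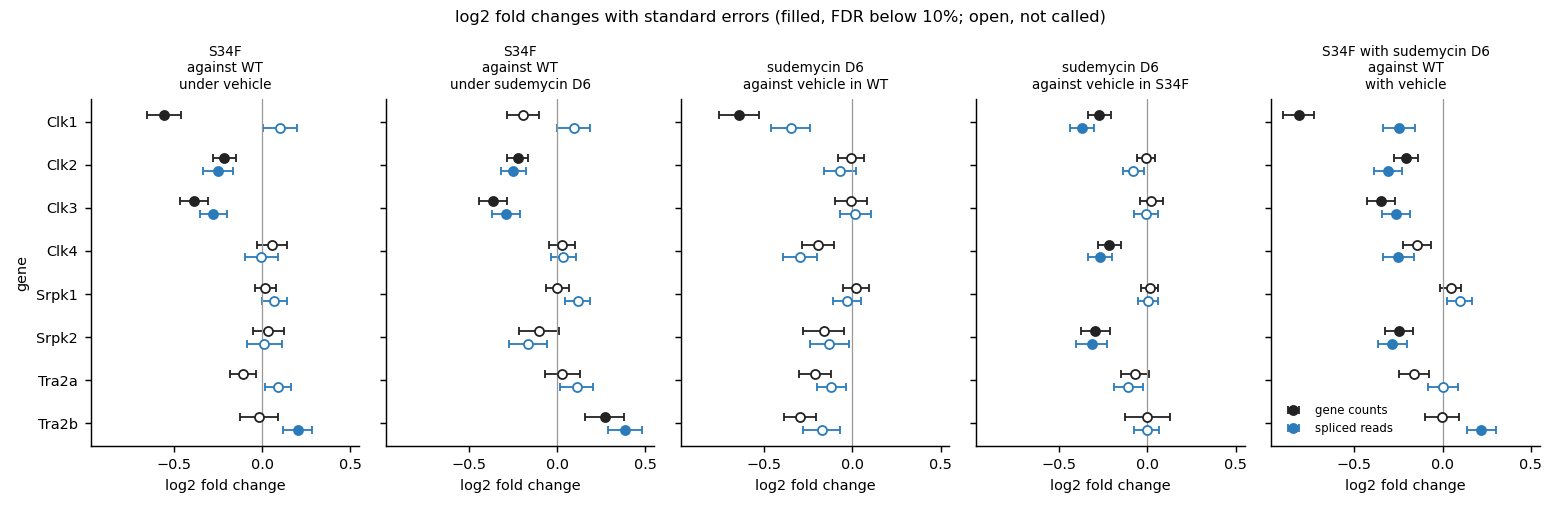
log2 fold changes (x axis) with standard errors for the 8 members (y axis) in the 5 comparisons, from gene counts (black) and from spliced reads (blue); filled points were called at FDR below 10% and open points were not. The black and blue points lie apart for Clk1 in S34F against WT under vehicle (−0.56 against 0.10) and close together for Clk2 and Clk3.

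The substrates and partners of these kinases were read from 3 lists, beside shares of all genes called of 39.5% between genotypes under vehicle, 36.8% under sudemycin D6, 50.2% for mutation and drug together, 3.07% with the drug in WT and 10.8% with the drug in S34F. Of the 11 listed SR proteins (Srsf1 to Srsf7 and Srsf9 to Srsf12), 10 were tested, and in S34F against WT under vehicle Srsf1 (0.32, FDR 0.0271), Srsf2 (0.29, FDR 0.0534) and Srsf10 (0.43, FDR 0.00194) were higher and Srsf5 (−0.49, FDR 0.00581) was lower, with a median log2 change of 0.02 for the list and 0.00 for all genes. Under sudemycin D6 2 were higher and 2 lower, and for mutation and drug together 4 were higher and 1 lower. With the drug none of the 10 was called by edgeR in either genotype, and 1 in each had an unadjusted p below 0.05.

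Of 11 other kinases, phosphatases and import factors of SR proteins, 5 were higher and 2 lower in S34F against WT under vehicle (all genes, 39.5%), 1 higher and 3 lower under sudemycin D6, and 6 higher and 3 lower for mutation and drug together (all genes, 50.2%). The catalytic subunits of the phosphatases that dephosphorylate SR proteins were among those called higher under vehicle (Ppp1ca 0.30, FDR 0.0334, Ppp1cb 0.27, FDR 0.0648, Ppp1cc 0.29, FDR 0.00896, and Ppp2ca 0.22, FDR 0.0244), and the kinase Dyrk1b was lower (−0.69, FDR 0.00326). Of 9 coactivators and partners with arginine-serine domains, 2 were higher and 3 lower in each of these 3 comparisons, with Srrm1 (−0.74, FDR 0.000269) and Srrm2 (−0.52, FDR 0.0035) lower under vehicle. The median log2 change under vehicle was 0.11 for the first of these lists and −0.14 for the other. With the drug no gene of either list was called by edgeR, and 1 gene of each list had an unadjusted p below 0.05 in WT and 0 in S34F.

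Splicing of the members was followed as Ψ, the share of transcripts that include a cassette exon, computed from reads across its 2 inclusion junctions (averaged) and its skipping junction. Events were tested by a quasi-likelihood fit of inclusion against skipping reads with a term for each mouse, with no extra negative binomial dispersion, over 24758 to 25736 cassette events per comparison, and an event was called at FDR below 10% with a difference in Ψ (ΔΨ) above 1 percentage point. These calls depend on that formulation: with an estimated dispersion edgeR called no member event in any comparison (smallest FDR 0.161, with 3 to 12 member events per pair of groups at an unadjusted p below 0.05), and 0 to 9 events over all genes.

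Of the 59 member events tested, 16 were called in at least 1 comparison: 7 of 14 in Clk4, 4 of 6 in Tra2b, 2 of 12 in Clk1 and 1 each in Clk3, Srpk1 and Srpk2. No event of Clk2 or Tra2a was called. In S34F against WT, 8 of 46 were called under vehicle, all with higher inclusion in S34F, against 4.24% of all events, and 4 of 40 under sudemycin D6, 2 higher and 2 lower, against 3.81%. Among the 8, the 130-bp exon of Clk3 and the 60-bp (between exons 5 and 8) and 84-bp exons of Tra2b had 0 skipping reads in S34F vehicle. They met the minimum of skipping reads through WT mice alone, so only higher inclusion in S34F was possible for them. Under sudemycin D6 the 93-bp exon of Srpk2, called lower, met that minimum mainly through S34F mice. With sudemycin D6, 2 of 46 were called in WT (1 higher, 1 lower) against 1.58%, and 3 of 43 in S34F (1 higher, 2 lower) against 1.75%. Mutation and drug together gave 9 of 43 (8 higher, 1 lower) against 7.3%. Of those higher, the 60-bp (between exons 6 and 8) and 84-bp exons of Tra2b had few skipping reads in S34F sudemycin. These averaged 0.0135 and 0.0153 spliced CPM there, and 0.150 and 0.119 in WT vehicle. Both events met the read minimum mainly through WT vehicle mice, which favoured a higher call. A wider set of junctions admits ends that the annotation lacks. In it, 6 of 42 member events were called in S34F against WT under vehicle (5 higher, 1 lower), against 7.17% of all events of that set. Under sudemycin D6 6 of 39 were called (2 higher, 4 lower), against 5.65%. The drug gave 3 of 41 in WT (2 higher, 1 lower), against 3.25%, and 3 of 39 in S34F (1 higher, 2 lower), against 3.76%. For mutation and drug together 7 of 42 were called (4 higher, 3 lower), against 12.1%. Several of these events share an exon or a junction and are not independent of each other. No member event had an interaction of genotype and drug (0 of 45 tested by edgeR, 3 of them at an unadjusted p below 0.05, against 0.00808% of all events). None of the 3 or 4 alternative 3′ splice sites and 2 alternative 5′ splice sites tested per comparison was called, with 0 or 1 of either kind at an unadjusted p below 0.05.

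**Figure D3:**
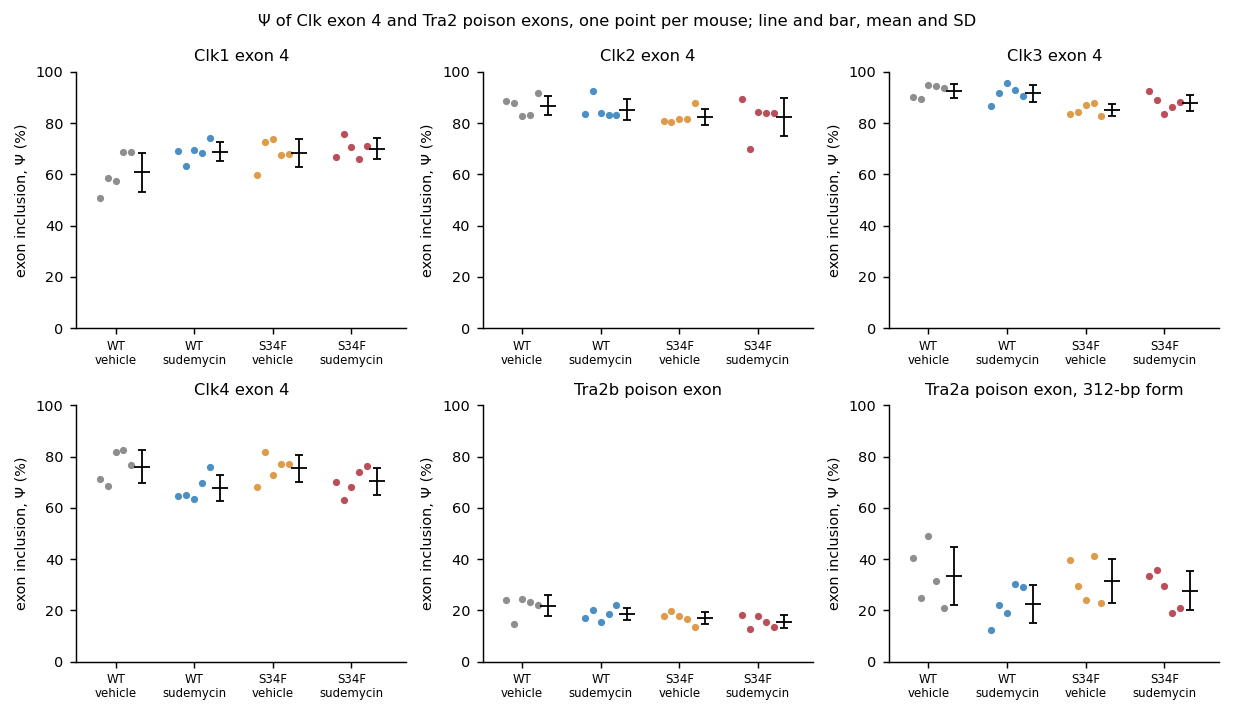
Ψ (percent, y axis from 0 to 100) of exon 4 of each Clk gene and of the Tra2 poison exons in the 4 groups of 5 mice; each point is a mouse, and the line and bar are the group mean and SD. Inclusion of Clk1 exon 4 was lowest in WT vehicle (mean 60.8%), Clk3 exon 4 was lower in S34F vehicle than in every WT vehicle mouse, and the Tra2b poison exon was lowest in S34F sudemycin (mean 15.5%).

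Exon 4 of the Clk genes was included in most transcripts, from a mean of 60.8% for Clk1 to 92.6% for Clk3 in WT vehicle mice. For Clk1 it was 50.8, 58.5, 57.2, 68.7 and 68.6% in WT vehicle, 69.0, 63.5, 69.5, 68.3 and 74.3% in WT sudemycin, 59.7, 72.7, 73.7, 67.5 and 68.0% in S34F vehicle and 66.8, 75.8, 70.7, 65.9 and 71.1% in S34F sudemycin, from 828 to 1604 reads per mouse. WT vehicle mice 1, 2 and 3 lay below every other mouse. Inclusion was called higher in S34F under vehicle (ΔΨ 7.57 points, FDR 0.0917) and with mutation and drug together (9.33 points, FDR 0.0136), while the drug in WT gave 8.16 points without a call (FDR 0.202). By an exact two-sided permutation test of the means of Ψ, these had p = 0.103, 0.0635 and 0.0714.

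Single mice decided the calls for Clk1 exon 4. Under vehicle the call was lost in 7 of the 10 fits that left out 1 mouse (without WT vehicle mouse 1, 5.07 points, FDR 0.38). For mutation and drug together it was lost without WT vehicle mouse 1 (6.83 points, FDR 0.134) or S34F sudemycin mouse 6 (7.89 points, FDR 0.118). Reads that skipped exon 4 averaged 6.34 spliced CPM in WT vehicle, 3.83 in WT sudemycin, 3.99 in S34F vehicle and 3.04 in S34F sudemycin. Reads across the junctions into and out of exon 4, summed, averaged 20.3, 16.8, 17.1 and 14.2 in the same order.

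Clk3 exon 4 had a lower mean inclusion in S34F than in WT mice. It was included at 90.0, 89.6, 95.0, 94.5 and 93.7% in WT vehicle and 83.7, 84.3, 87.3, 88.0 and 82.9% in S34F vehicle, without overlap. The difference of −7.33 points had an exact permutation p = 0.00794, the smallest that 5 against 5 mice can give, and missed the threshold over all events (FDR 0.169). Under sudemycin D6 inclusion was 86.6, 92.0, 95.9, 93.1 and 90.8% in WT and 92.5, 88.9, 83.5, 86.5 and 88.2% in S34F, which overlap (−3.75 points, FDR 0.437).

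Clk4 exon 4 was lower with sudemycin D6 in mean without a call. In WT mice it was 71.1, 68.6, 81.7, 82.7 and 76.6% under vehicle and 64.6, 65.0, 63.4, 69.6 and 75.8% under the drug (−8.46 points, FDR 0.211, exact permutation p = 0.0635). The near-identical Clk1 exon 4 had a ΔΨ of the opposite sign in that comparison, and neither difference passed the test. Clk2 exon 4 has 2 acceptors 3 bases apart. Its longer form was included at 69.7 to 92.6% over all mice, from 205 to 403 reads per mouse, and neither form was called in any comparison.

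Inclusion of the Tra2b poison exon was called lower only for mutation and drug together against WT vehicle, and in no other comparison of all mice. It was 24.2, 14.7, 24.5, 23.2 and 22.2% in WT vehicle, 16.9, 19.97, 15.5, 18.6 and 21.9% in WT sudemycin, 17.8, 19.9, 17.95, 16.5 and 13.5% in S34F vehicle and 18.3, 12.5, 17.6, 15.3 and 13.6% in S34F sudemycin, from 460 to 1002 reads per mouse. WT vehicle mouse 2 lay below its group, among the mutant mice. Inclusion fell by 6.26 points from WT vehicle to S34F sudemycin (FDR 0.0125, exact permutation p = 0.0317), a call kept in all 10 fits that left out 1 mouse. In S34F against WT under vehicle the difference was −4.63 points (FDR 0.181, exact permutation p = 0.0556), and without WT vehicle mouse 2 it was −6.40 points and called (FDR 0.0268). Reads that skip the poison exon, which join the coding exons, averaged 10.4 spliced CPM in WT vehicle and 11.3 in S34F sudemycin, with the other groups between. Reads across the junctions into and out of the poison exon, summed, averaged 5.66 in WT vehicle and 4.15 in S34F sudemycin.

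The Tra2a poison exon had ends that the annotation lacks and was read from a wider set of junctions, in forms of 312, 301 and 79 bp that share an acceptor and a skipping junction. The 312-bp form was included at 40.3, 24.7, 48.9, 31.4 and 21.1% in WT vehicle and 12.3, 22.1, 18.8, 30.3 and 29.1% in WT sudemycin, which overlap widely. The difference of −10.8 points was not called (FDR 0.334, exact permutation p = 0.119), and no form was called in any comparison. In S34F mice it was 23.0 to 41.3% under vehicle and 18.9 to 35.7% under the drug. In all, 45 exact tests of Ψ were made on these exons, counting each form as an exon, and 3 gave p below 0.05 before any adjustment.

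**Figure D4:**
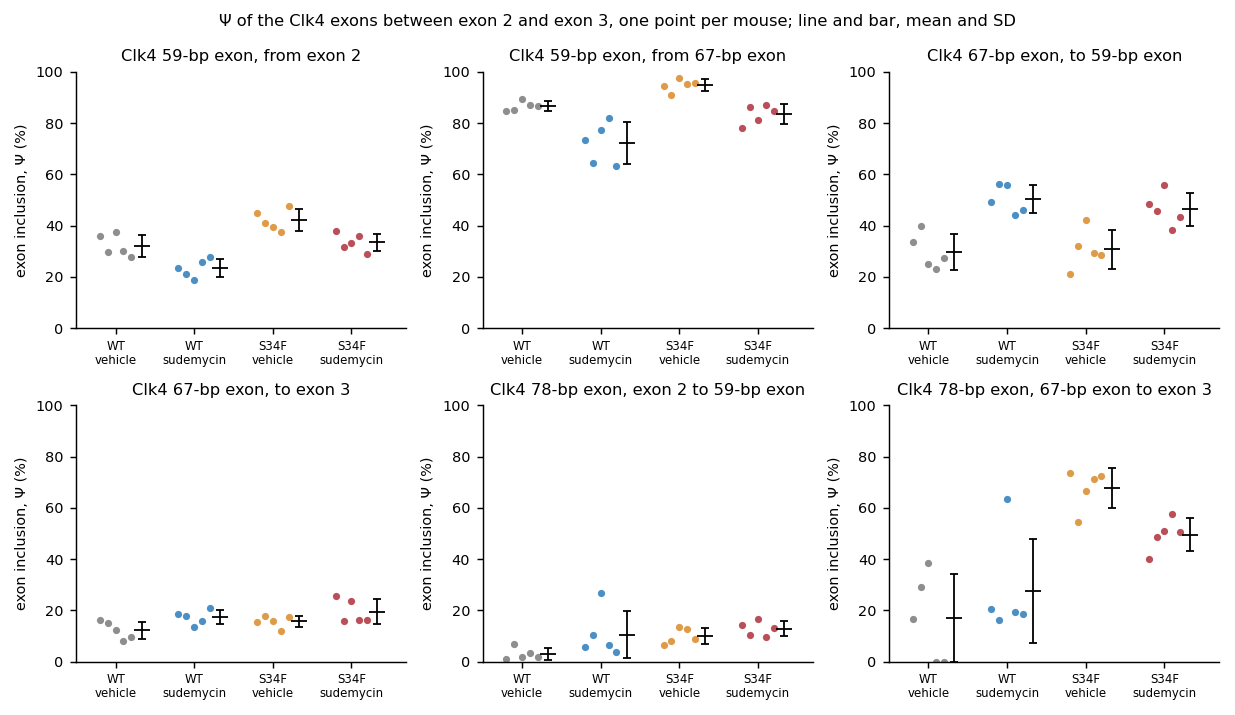
Ψ (percent, y axis from 0 to 100) of the 59-bp, 67-bp and 78-bp exons between exon 2 and exon 3 of Clk4, each by the exons it is spliced between, in the 4 groups of 5 mice; each point is a mouse, and the line and bar are the group mean and SD. The 59-bp exon was higher in S34F and lower with sudemycin D6 in both genotypes, while the 67-bp exon spliced to it was higher with the drug.

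Most member calls lay between exon 2 and exon 3 of Clk4, where the annotation has 3 short exons that the main coding transcript leaves out, of 67, 78 and 59 bp from 5′ to 3′. Spliced between exon 2 and exon 3, the 59-bp exon was included at 35.8, 29.7, 37.3, 30.2 and 27.6% in WT vehicle and 45.1, 41.0, 39.6, 37.3 and 47.7% in S34F vehicle, groups that met only at 37.3%. Under sudemycin D6 it was 23.6, 21.0, 18.9, 25.7 and 27.8% in WT and 37.8, 31.8, 33.1, 35.8 and 29.01% in S34F, without overlap. Inclusion thus rose in S34F by 10.02 points under vehicle (FDR 0.00183) and 10.1 points under the drug (FDR 0.00287), and both calls were kept in all 10 fits that left out 1 mouse.

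With sudemycin D6 the same exon fell by 8.74 points in WT (FDR 0.0813) and fell by 8.67 points in S34F (FDR 0.0206). The call in WT was lost in 7 of the 10 fits that left out 1 mouse (without WT vehicle mouse 3, −7.44 points, FDR 0.256), and that in S34F without S34F vehicle mouse 11 (−7.29 points, FDR 0.15) or S34F sudemycin mouse 12 (−7.56 points, FDR 0.174). From WT vehicle to S34F sudemycin the difference was 1.34 points (FDR 0.708), and the drug effects in the 2 genotypes differed by 0.0661 points (interaction FDR 0.983). Between the 67-bp exon and exon 3, the 59-bp exon was included at 94.6, 90.95, 97.5, 95.3 and 95.8% in S34F vehicle and 78.3, 86.3, 81.3, 87.2 and 84.9% in S34F sudemycin, a fall of 11.2 points without overlap (FDR 0.00547), kept in all 10 fits that left out 1 mouse.

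Ψ of the 67-bp exon rose with sudemycin D6 where it was spliced to the 59-bp exon. Spliced between exon 2 and the 59-bp exon it was included at 33.5, 39.8, 24.8, 22.9 and 27.3% in WT vehicle and 49.1, 56.4, 55.7, 44.3 and 46.3% in WT sudemycin, without overlap. In S34F mice it was 21.3, 32.2, 42.2, 29.1 and 28.6% under vehicle and 48.6, 45.5, 55.8, 38.4 and 43.3% under the drug, where S34F vehicle mouse 5 reached into the treated range. The increase was 20.7 points in WT (FDR 0.0353) and 15.6 points in S34F (FDR 0.00121), from 102 to 396 reads per mouse. Reads that include the exon, summed, averaged 2.17 spliced CPM under vehicle and 2.21 under the drug in WT, and 2.78 and 2.90 in S34F. Reads that skip it averaged 2.56 and 1.14 in WT, and 3.19 and 1.67 in S34F. The skipping junction, from exon 2 to the 59-bp exon, is an inclusion junction of the 59-bp exon above. The call in WT was lost without WT vehicle mouse 3, 4 or 5 (FDR 0.101 to 0.142), and that in S34F was kept in all 10 fits. For mutation and drug together the 67-bp exon rose by 16.7 points (FDR 0.00428), and by 7.32 points when spliced between exon 2 and exon 3 (FDR 0.00249). Between exon 2 and exon 3 the drug alone gave no call in either genotype. The means there were 12.2% in WT vehicle and 17.2% in WT sudemycin, and 15.7% in S34F vehicle and 19.5% in S34F sudemycin.

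The 78-bp exon rose in S34F mice under vehicle. Spliced between the 67-bp exon and exon 3 it was included at 16.7, 29.03, 38.5, 0 and 0% in WT vehicle, 20.5, 16.2, 63.4, 19.1 and 18.4% in WT sudemycin, 73.8, 54.5, 66.7, 71.4 and 72.3% in S34F vehicle and 40.0, 48.6, 50.8, 57.6 and 50.6% in S34F sudemycin. The vehicle groups did not overlap, and the difference was 50.9 points (FDR 0.00127), although only 15 to 92 reads per mouse lay behind these values. Of the mice at 0, WT vehicle mouse 4 had 15 skipping reads and mouse 5 had 20, and a count of 0 allows (at 3 reads) a Ψ of up to 9.09% and 6.98%, for counting error only. Under sudemycin D6 the difference was 22.0 points without a call (FDR 0.194), with WT mouse 9 above all S34F mice, and without that mouse it was 31.0 points and called (FDR 0.0152). Spliced between exon 2 and the 59-bp exon it was called at 6.91 points (FDR 0.035), a call lost in 4 of the 10 fits that left out 1 mouse. Hardly any read joined exon 2 to the 78-bp exon (a mean share of reads leaving exon 2 of 0.255% in WT vehicle and 0.0676% in S34F vehicle, a difference of −0.187 points, exact permutation p = 1.0), so that Ψ rested on the junction from the 78-bp to the 59-bp exon.

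Reads that leave the donor of exon 2 were also divided by the acceptor they reach, a measure without Ψ. Of 374 to 823 such reads per mouse, the mean share that went to the 67-bp exon was 14.3% ± 4.20 in WT vehicle, 21.3% ± 1.62 in WT sudemycin, 18.7% ± 2.33 in S34F vehicle and 23.8% ± 5.10 in S34F sudemycin (SD, n = 5). The share that went to the 59-bp exon was 21.3% ± 3.81, 12.02% ± 3.64, 26.2% ± 5.82 and 16.9% ± 2.60, and the share that went to exon 3 was 64.1% ± 5.404, 66.5% ± 4.75, 55.0% ± 5.63 and 59.1% ± 4.75. With sudemycin D6 in WT mice the share of the 67-bp exon differed by 7.03 points and that of the 59-bp exon by −9.24 points, both without overlap (exact two-sided permutation p = 0.00794 each). In S34F mice the difference was 5.02 points for the 67-bp exon (exact permutation p = 0.103) and −9.34 points for the 59-bp exon (exact permutation p = 0.0159). In S34F against WT the difference for the 59-bp exon was 4.97 points under vehicle (exact permutation p = 0.151) and 4.87 points under sudemycin D6 (exact permutation p = 0.0476), with overlap in both, beside ΔΨ of 10.02 and 10.1 points. That for exon 3 was −9.11 points under vehicle (exact permutation p = 0.0476). Of 25 such exact tests 6 were below 0.05, unadjusted.

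Outside Clk4, exons included in nearly every transcript were also called. In S34F against WT under sudemycin D6, the 167-bp exon of Clk1 fell by 3.503 points (FDR 0.00673), from 97.8, 100, 99.1, 99.2 and 99.0% in WT to 96.5, 98.4, 95.2, 92.8 and 94.6% in S34F. The 93-bp exon of Srpk2 fell by 2.91 points (FDR 0.000678), from 100, 100, 99.9, 99.2 and 99.6% to 97.7, 97.8, 96.6, 96.6 and 95.3%. Its skipping reads averaged 0.032 spliced CPM in WT and 0.394 in S34F, so it met the read minimum mainly through S34F mice. The Srpk2 values did not overlap while those of Clk1 did, and both calls were kept in all 10 fits that left out 1 mouse. Under vehicle the same exons differed by −2.51 and −1.67 points without a call (FDR 0.149 and 0.326). The inclusion junctions of the 167-bp Clk1 exon were unequal. Under sudemycin D6 intron 6 had 20.4 spliced CPM in WT and 16.4 in S34F, and intron 7 had 3.55 and 4.25. Ψ of this exon therefore rested mainly on the junction across intron 6.

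The 26-bp exon of Srpk1 rose by 4.37 points in S34F under sudemycin D6 (FDR 0.064), from 88.6 to 97.6% in WT to 96.1 to 100% in S34F, and without WT sudemycin mouse 9 by 3.02 points without a call (FDR 0.321). Exons of Clk3 (130 bp) and Tra2b (60 and 84 bp) that were included at 93.2% or more in every mouse were called with differences of 1.14 to 1.89 points. Without WT vehicle mouse 1 the 84-bp exon of Tra2b differed by 0.394 points under vehicle and its 60-bp exon spliced to exon 5 by 0.674 points, with no call. The Clk3 call was lost in 7 of the 10 fits that left out 1 mouse (without WT vehicle mouse 2, 0.996 points, FDR 0.25).

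The base at −3 of the 3′ splice site was set beside the direction of the S34F calls in the members, some of which had a direction limited by the read minimum. Under vehicle, the 8 member events called higher in S34F lay at exons with C (5 events) or A (3 events, all at the 78-bp exon of Clk4). Of those with C, the Clk3 130-bp and the Tra2b 60-bp and 84-bp events had 0 skipping reads in S34F vehicle, so the read minimum fixed their direction. Under sudemycin D6 the 2 called higher had C (the 59-bp exon of Clk4 and the 26-bp exon of Srpk1) and the 2 called lower had T. Of those with T, the Srpk2 93-bp event met the read minimum mainly through S34F mice, which favoured a lower call. Among all events called under vehicle, 89 of 107 with A, 395 of 516 with C and 41 of 460 with T were higher in S34F. Of all 26267 tested exons 57.5% have C, 35.3% T, 6.75% A and 0.472% G at −3. With the drug, Ψ of 2 exons of Clk4, both with C at −3, moved in opposite directions. The junction from exon 2 to the 59-bp exon counts as inclusion for the 59-bp exon and as skipping for the 67-bp exon. These changes are therefore not independent. The Tra2b poison exon, with A, was lower with mutation and drug together.

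Reading frames were followed through the annotated coding transcripts. Clk1 without exon 4 meets a stop after 135 codons in place of 483, 809 bases before the last exon junction, and Clk4 after 134 in place of 481. Clk2 goes from 500 to 136 codons and Clk3 from 638 to 300. The Tra2b poison exon places a stop after 38 of 288 codons, 1015 bases before the last junction, and the 312-bp Tra2a exon after 59 of 282. The 67-bp exon of Clk4 gives a stop after 53 codons and the 59-bp exon after 76, and a transcript with all 3 short exons meets the stop after 53 codons too. The 78-bp exon alone keeps the frame (507 codons in place of 481), a form for which hardly any read joined exon 2 to that exon. A further annotated coding transcript of Clk4 that holds the 67-bp exon starts 58 bases downstream of this start codon. A stop well upstream of the last junction is the usual trigger of nonsense-mediated decay, so transcripts of these forms can be under-represented in RNA.

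**Figure D5:**
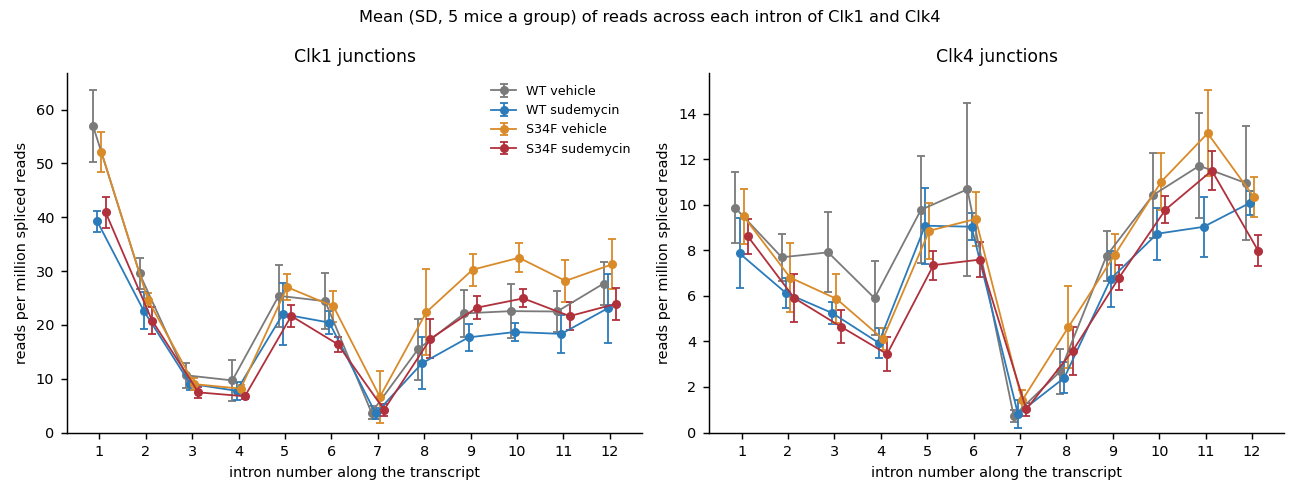
Mean junction reads in spliced CPM (y axis from 0) across introns 1 to 12 of Clk1 (left) and Clk4 (right) along the transcript (x axis); points are means of 5 mice in each group and bars are SD. For Clk1, S34F vehicle lies above WT vehicle across introns 7 to 12 (32.5 against 22.6 at intron 10) and at or below it across introns 1 to 4.

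Reads across the introns of Clk1 were uneven along the gene and differed between genotypes by position. Across intron 1 they averaged 56.9 ± 6.74 spliced CPM in WT vehicle and 52.1 ± 3.75 in S34F vehicle (SD, n = 5), and across intron 10 22.6 ± 5.07 and 32.5 ± 2.67. Intron 7 had the fewest reads in every group, 3.69 in WT vehicle, 3.55 in WT sudemycin, 6.62 in S34F vehicle and 4.25 in S34F sudemycin. In Clk4, too, intron 7 was lowest, at 0.726, 0.818, 1.41 and 1.02. The ratio of reads across the last to the first intron was also higher in S34F mice over 4254 genes (above), and its part in the Clk1 profile was not tested.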

How the data were processed

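Libraries were rRNA-depleted and stranded (126 bp, paired). The authors aligned reads to mm9 with TopHat 2.0.8 and deposited a table of counts per gene and a table of counts per splice junction; the program and strand setting behind the gene counts are not given in the sources used here. Clk3, Clk4 and Srpk2 overlap a gene on the opposite strand (Edc3, BC049762 and Mll5). Mice were grouped by their labels.

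Gene counts were tested in edgeR 4.0.16 (filterByExpr, TMM, robust quasi-likelihood, prior count 2) for each pair of groups, with FDR over all genes and a call below 0.1. The interaction was fitted over all 20 mice. CPM are counts scaled to 1000000 per TMM-scaled library. The same test was run on junction reads summed per gene ("spliced reads"), added after the data were seen. Cassette events joined junctions with both ends annotated (77979 built) and needed a mean of 10 reads per mouse and 1 read per mouse for each isoform, the latter minimum being an addition to the plan. Ψ was (I/2)/(I/2 + S), for inclusion reads I and skipping reads S. The edgeR fit used dispersion 0, a formulation taken from earlier work on these data. Single values were compared by exact two-sided permutation tests, whose smallest p with 5 against 5 mice is 0.00794. Named events are exon 4 of each Clk gene, the Tra2 poison exons and at most 6 other called events per gene, which left out 1 called Clk4 event. Scripts were tested on simulated data. The members and lists were chosen with earlier results of these data known. Sequences were read from NCBI build 37 with GENCODE vM1. Alternatives were DESeq2 1.42.0, other size factors, no filter, limma 3.58.1 on Ψ, an estimated dispersion, other minimums and leaving out each mouse. Replicates are recipients of pooled marrow, and counts carry no molecular identifiers. Mouse numbers shared between genotypes do not pair samples.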

Additional observations from a re-analysis of the deposited data

Results flagged for a closer look

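In 17 of 120 groups of 5 values, 1 mouse stood apart from the rest of its group by a gap of more than 0.71 of the group's range. Chance gives about 1 in 20 groups for independent, normally distributed values, which these groups need not be. In gene counts the mice that stood apart were S34F sudemycin mouse 10 for Clk2 (41.4 CPM, the others 46.2 to 47.4) and S34F sudemycin mouse 6 for Srpk1 (109.7 CPM, the others 120.2 to 124).

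For Clk2 exon 4, WT sudemycin mouse 8 was high (92.6%, and 92.0% for the shorter form), S34F vehicle mouse 11 was high (88.0%, the others 80.4 to 81.7%) and S34F sudemycin mouse 6 was low (69.7%, the others 84.1 to 89.4%). The Tra2b poison exon was low in WT vehicle mouse 2 (14.7%, the others 22.2 to 24.5%). The 78-bp exon of Clk4 between the 67-bp exon and exon 3 was high in WT sudemycin mouse 9 (63.4%, the others 16.2 to 20.5%), and without that mouse the difference of S34F from WT under sudemycin D6 was 31.0 points and called (FDR 0.0152).

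The other cases were exons at or near 100% in the rest of the group. The chance rate above does not apply where the others are tied at 100%, because 1 mouse with any skipping read then stands apart. The 130-bp exon of Clk3 was at 99.1% in S34F sudemycin mouse 2. The 60-bp exon of Tra2b between exons 6 and 8 was at 99.1% in S34F vehicle mouse 5 and 99.5% in S34F sudemycin mouse 12. Between exons 5 and 8 it was at 93.2% in WT vehicle mouse 1, 97.4% in WT sudemycin mouse 8 and 98.9% in S34F sudemycin mouse 10, and the 84-bp exon was at 95.3%, 99.1% and 99.4% in the same 3 mice, with which it shares its skipping reads. No explanation of these values was tested.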

How the results depend on the processing

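Member counts moved by more than 1.5 times under these settings, given in the order S34F against WT under vehicle, the same under sudemycin D6, the drug in WT, the drug in S34F, and mutation and drug together. The 8, 4, 2, 3 and 9 called cassette events became 3, 2, 0, 1 and 4 with limma on Ψ, and 0 in each with an estimated dispersion. With only annotated pairings of junctions, which hold fewer of the Clk4 events by construction, they became 1, 1, 0, 1 and 4. A minimum |ΔΨ| of 0.1, as a fraction, left 3, 1, 1, 2 and 3. Leaving out each mouse gave 4 to 9, 3 to 4, 0 to 2, 2 to 3 and 7 to 11. Of these, the count under vehicle was 5 without WT vehicle mouse 1 or 3 and 4 without S34F vehicle mouse 7 or 11. With the drug in WT it was 0 without WT vehicle mouse 3, and 1 without WT vehicle mouse 1, 2 or 5 or WT sudemycin mouse 6, 8, 9 or 10. The added settings, annotated pairings, the wide set of junctions and spliced reads, were chosen after seeing the data.

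The 1 gene called with the drug in WT became 2 with DESeq2 (Clk1 and Tra2b) and 0 with spliced reads. The 3 called with the drug in S34F became 0 in one model of all mice and 1 to 3 when each mouse was left out, with 1 without S34F vehicle mouse 11 or S34F sudemycin mouse 2 or 10. The other gene counts ranged over 3 to 3, 2 to 4, 1 to 1 and 4 to 6 when each mouse was left out, in the order of comparisons above without the drug in S34F. With spliced reads, among values called by either count, the sign turned for Clk1 under vehicle (0.10), Tra2b under vehicle (0.20) and Tra2b for mutation and drug together (0.22). It also turned for values called by neither, such as Clk1 in S34F against WT under sudemycin D6 (−0.19 by gene counts, 0.09) and Tra2a under vehicle (−0.11, 0.09). DESeq2 size factors, no filter on low counts, the wide set and 20 reads per mouse moved no count of member calls by more than 1.5 times, and the interaction gave 0 calls under every setting run. The cause of these changes was not tested.

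Calls gained when 1 mouse was left out include Clk1 exon 4 with the drug in WT (10.1 points without WT vehicle mouse 4, FDR 0.0685), Clk1 in S34F against WT under sudemycin D6 (−0.23 without WT sudemycin mouse 6, FDR 0.0785) and, for mutation and drug together, Clk4 (−0.20, FDR 0.0313) and Tra2a (−0.18, FDR 0.0997) without WT vehicle mouse 2.

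Shared mouse numbers did not pair the samples: the correlations of same-numbered mice were 0.123, 0.154 and −0.110 under vehicle and −0.038, 0.266, 0.366 and −0.180 under sudemycin D6, and 1 of 3 and 1 of 4 mice correlated best with its own number. With the mouse number as a replicate block, called events went from 8 to 0 under vehicle and from 4 to 1 under sudemycin D6, and called genes from 3 to 3 and from 3 to 2, without Tra2b (0.18, FDR 0.313). Only 3 numbers under vehicle and 4 under sudemycin D6 occur in both genotypes, so these fits drew the genotype effect from those mice alone. The lost calls cannot be told apart from the use of fewer mice.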

Other observations

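The genes whose log2 CPM over the 20 mice followed each member most closely were found by the root mean square difference of centred log2 CPM among 9765 genes with a mean of at least 5 CPM. For Clk1 they were Ccnl1 (0.116), Spty2d1 (0.123) and Dleu2 (0.133). For Clk2 they were Araf (0.0616), Ppfia1 (0.0636) and Arhgef2 (0.0654), and for Clk3 Arrb1 (0.0731), Btbd9 (0.0769) and Flot1 (0.0778). For Clk4 they were Elf2 (0.0709), Ddhd2 (0.0761) and Pik3r1 (0.0808), and for Srpk2 Atp11b (0.0819), Stx17 (0.0836) and Pbx2 (0.0858). For Tra2b they were Srsf3 (0.0938), an SR protein, Tmed5 (0.0949) and Hnrnph1 (0.121). The 20 mice share 4 groups and their library depths, and these differences are descriptions of likeness with no test.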
